A study of Mus musculus with 4 samples.

Results

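Ribosomal proteins are the protein components of the cytosolic ribosome, and their genes were taken here as every array row annotated to 1 gene whose symbol is Rpl, Rps or Rplp with a number and at most a trailing a, x or l. S6 kinase and mitochondrial ribosomal protein genes were left out. The rule gave 98 probe sets of 45 genes, out of 18194 genes with a row of 1 symbol. Of these, 24 genes with 44 probe sets encode proteins of the large subunit and 21 genes with 54 probe sets encode proteins of the small subunit. Another 110 rows list a ribosomal protein gene together with other genes and were not counted as members. The current reference has 80 protein-coding genes whose names fit the rule, and 44 of them are among the 45 measured here.

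The samples were mouse embryonic stem (ES) cells, the self-renewing cells derived from the early embryo. One group was wild type (WT, clone 1 and clone 2) and the other carried a Klf5 knockout (Klf5 KO, clone 1 and clone 2). Each of the 4 clones was measured on 1 Affymetrix mouse expression array, from total RNA. All 4 were kept in ES medium with serum and the self-renewal cytokine LIF. The labels do not give the deleted part of Klf5, how either pair of clones was derived, or whether feeder cells were present. Differences between the 2 clones of a group therefore hold clonal, culture and array variation together, and 2 clones a group limit the precision of every value.

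The large subunit of the ribosome joins amino acids and holds the exit tunnel for the new chain, while the small subunit binds and reads the mRNA. Their proteins are needed in nearly equal amounts, and their mRNAs are among the most abundant in growing cells. Many of these mRNAs begin with a run of pyrimidines at the transcription start (a terminal oligopyrimidine tract), through which mTOR signalling controls their translation. A few genes have a close paralog, such as Rpl39l beside Rpl39 and Rps27l beside Rps27. Klf5 is a zinc finger transcription factor that supports self-renewal of mouse ES cells and binds GC-rich and CACCC-like sequences.

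Promoters of 39 of the 45 genes, 47 in all, were found in RefSeq's table for the build GRCm38.p6. The starts of a few genes on which the results turn, and of a few with long pyrimidine runs, are shown as 20 bases, from 5 before the annotated start. Capitals mark the longest run of C and T.
Rpl35, chr2:39005117-39005136, minus strand: CTTTCCTCTTTCTCTCgaac
Rpl13a, chr7:45128731-45128750, minus strand: gacaagaCCTCCTCCTTTCC
Rps6, chr4:86857353-86857372, minus strand: cgggCCTCTTTTTCgtgacg
Rps27, chr3:90213634-90213653, minus strand: tcgCTCCTTTCCggcggtga
Rps27l, chr9:66946081-66946100, plus strand: ccgccgCCTCTatcccggaa
Rps9, chr7:3704036-3704055, plus strand: CTCTCTTTgtctcgggcctg
Rps3, chr7:99483695-99483714, minus strand: TCgccgcgctgcgcggcgtc
Rpl39l, chr16:10170223-10170242, plus strand: TTTCCggatttccggtggtc
A C followed by at least 4 pyrimidines, on the gene's strand and wholly between 5 bases before and 10 bases after the start, was present in 20 of the 47 promoters, or 42.6%, against 18.3% of all 32851 promoters in the table. Rps27 and its paralog Rps27l both hold such a run, whereas Rpl39l and Rps3 do not in this window. From 250 bases before to 50 bases after the start and on both strands, GGGCGG, the core of the GC box, was found in 48.9% of the member promoters and 35.7% of all. CACCC was found in 51.1% of member promoters and 57.5% of all, and CCACCC, which overlaps it, in 25.5% and 31.5%. TATAAA was found in 10.6% and 13.6%. A match describes the letters in the window and does not show that a factor binds there.

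The targeted gene was called lower in the KO by 1 of its 2 probe sets. Klf5 probe set 1451021_a_at was at 2398 and 1782 in WT against 34.8 and 49.9 in KO, a log2 fold change of -5.17 ± 0.22 (SE; limma, adjusted p = 3.3e-05). The dimmer Klf5 set 1451739_at, at 102 and 88.6 in WT against 82.6 and 61.0 in KO, gave -0.35 and was not called (limma adjusted p = 0.36). Intensities given here are quantile-normalized linear values, and fold changes are KO over WT on log2(intensity + 16), which understates the change of dim probe sets. A change is called where limma's adjusted p over the 27022 probe sets kept after a filter on dim ones is under 0.05. By this rule 996 probe sets, 3.69%, were called, 659 higher and 337 lower in the KO. With each array centred on its median in place of quantile normalization, the split was 640 higher and 1420 lower, and the median of all probe sets then lay at -0.16. Among fibroblast markers, which could come from feeder or differentiating cells, 11 of 11 measured genes were called higher, where 2.94% of all genes were. Their median was 2.41 on the log2 scale, and Lum fell under the filter. Col6a1 (11.7 and 9.27 in WT, 173 and 204 in KO) passed the filter only through its KO values. So did Dcn (2.14 and 2.89 in WT, 72.0 and 59.1 in KO). The count of 11 of 11 is thus in part set by the filter. The measured markers stayed positive under each pseudocount, filter and normalization. With a pseudocount of 1 or without the filter 7 were called, and 9 on the values as deposited. Their intensities summed to 534 and 444 in WT, against 6735 and 5842 in KO. The share of this shift in any result below was not tested. In a bulk sample, a change in cell types and a change per cell cannot be told apart. Of 10 ES cell markers, such as Pou5f1, Nanog and Zfp42, none was called by limma, and their median was -0.15, or -0.45 as deposited and -0.41 with centring. They ran from -0.67 for Esrrb to 0.24 for Tdgf1. Both KO clones were lower for 5 and higher for 1, against 3866 and 3372 of all 13023 genes. With a pseudocount of 64, with centring or with an intensity trend in limma's variance prior, 1 was called. The deposited values of the 4 arrays had medians between 18.6 and 28.5.

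Transcripts of the cytosolic ribosome had a median fold change near 0 by gene, and this rests mostly on probe sets near the top of the array's scale, where a full reading of changes was not tested. The 25 dimmer probe sets, at a mean intensity of 4000 or less, had a median of 0.38 on the log2 scale, with 22 positive. All kept sets in that range had a median of -0.02, with 12556 of 26501 positive. The median of the dimmer members was 0.17 without KO clone 1, with 16 of 24 positive, and 0.67 without KO clone 2. With 1 representative probe set for each gene, none of the 43 genes measured was called by limma, and 4 had an unadjusted p under 0.05, where 4.28% of 13023 genes were called (2.94% higher and 1.34% lower) and 21.5% had such an unadjusted p. The median log2 fold change was 0.03, from -0.11 for Rplp2 to 0.89 for Rps24, beside -0.02 for all genes. The representative was the probe set of highest mean, with sets marked _x_at, which can match related transcripts, used only where there was no other. For 37 of the 43 genes the 95% confidence interval lay within a 2-fold change in either direction, and for 30 within 1.5-fold. The values of the 2 groups overlapped for 27 genes, both KO clones were higher for 13 and both were lower for 3, so that 37.2% of the genes did not overlap, against 55.6% of all genes. Rpl3l and Rps16 had only 1 probe set each and fell under the filter.

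Counted by probe set, 92 of the 98 passed the filter. Of these, 2 were called higher and none lower by limma, 8 had an unadjusted p under 0.05, and 63 had a positive and 29 a negative fold change. Among all kept probe sets, 2.44% were called higher, 1.25% lower, and 20.4% had an unadjusted p under 0.05. Both KO clones lay above both WT clones in 31 probe sets and below them in 7, which is 41.3% without overlap against 52.3% of all kept probe sets (23.9% higher and 28.4% lower). The 6 that did not pass were the only sets of Rpl3l and Rps16 and 1 further set each of Rpl27a, Rps3, Rps4x and Rps6.

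**Figure D1:**
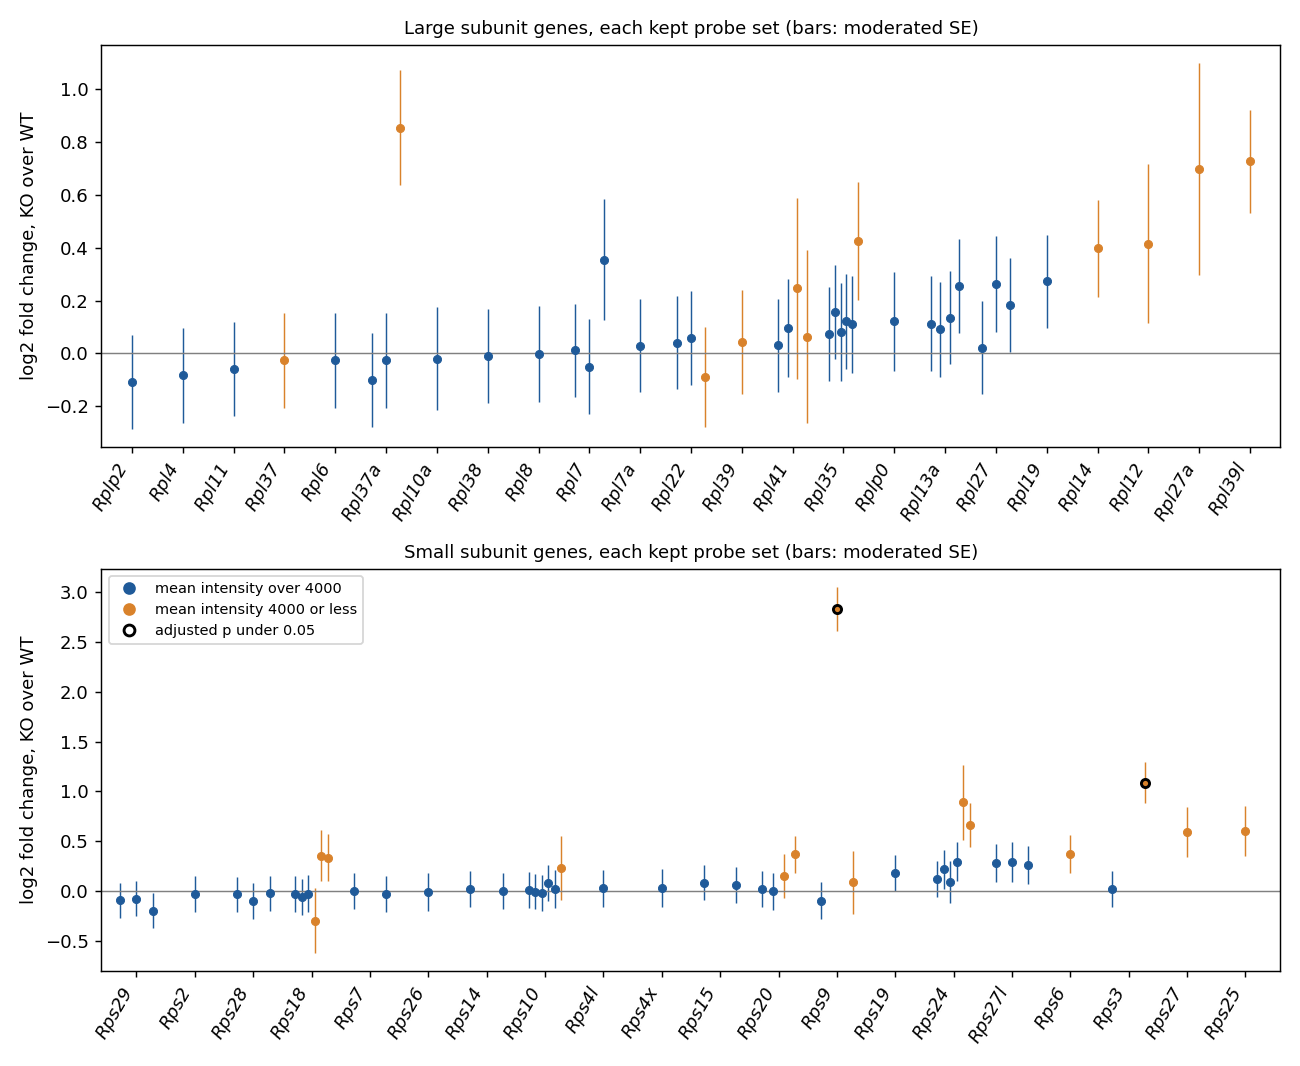
Log2 fold change, KO over WT, of every kept ribosomal protein probe set (points, with bars for limma's standard error), 1 column for each gene, coloured by a mean intensity above or at most 4000 and ringed where called, with the large subunit in one panel and the small subunit in the other, each on its own vertical scale. Most points lie close to 0 in both panels, and the probe set of Rps9 at 2.83 stands above all others.

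In the large subunit, none of 42 kept probe sets was called by limma and 2 had an unadjusted p under 0.05, where 3.69% and 20.4% of all kept probe sets did. The median over its 23 measured genes was 0.03, with 13 positive and 10 negative. The stalk that recruits elongation factors is built on Rplp0 and Rplp2. Rplp0 gave intensities of 7475 and 8933 in WT, against 8743 and 9042 in KO, a log2 fold change of 0.12, and the groups overlapped. Rplp2 measured 10949 and 10638 in the WT and 9612 and 10422 in the KO clones, a log2 fold change of -0.11 ± 0.18 (SE). Both KO clones lay below WT, by less than limma's SE, which rests mostly on a variance prior shared by all kept probe sets. Rpl12, at the base of the stalk, was at 604 and 560 in WT against 1122 and 543 in KO, where only KO clone 1 was high.

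Among the named genes of the large subunit are several picked for a negative or very small fold change. Rpl4 gave intensities of 10352 and 10675 in WT, against 9427 and 10443 in KO, a log2 fold change of -0.08. Rpl11, which with Rpl5 and 5S rRNA can bind Mdm2, measured 8153 and 8201 in the WT and 8243 and 7475 in the KO clones, a log2 fold change of -0.06. Rpl8 was at 7578 and 8281 in WT against 7578 and 8243 in KO, a log2 fold change of -0.003. The values of all 3 genes overlapped between the groups. Rpl38, known for its part in the translation of Hox mRNAs, gave -0.01 and Rpl10a -0.02, again with overlap. The representative of Rpl27 gave 0.02 with overlap, while its other 2 sets, 1453096_x_at and 1448217_a_at, gave 0.26 and 0.18 with both KO clones above WT, and none of the 3 was called. Rpl37, read by a single _x_at set, gave -0.03.

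Rpl19 gave intensities of 7199 and 7528 in WT, against 8994 and 8799 in KO, a log2 fold change of 0.27 ± 0.18 (SE; limma adjusted p = 0.42). Both KO clones were above both WT clones, and the difference did not pass the test. Rpl14 measured 475 and 420 in the WT and 627 and 562 in the KO clones, a log2 fold change of 0.40 (limma adjusted p = 0.27), also without overlap. Rpl27a, which had 1 kept probe set, was at 92.3 and 294 in WT against 279 and 284 in KO, a log2 fold change of 0.70 (limma adjusted p = 0.36). That value rested on WT clone 1: without it the fold change was -0.06, and without WT clone 2 it was 1.47 with a limma adjusted p of 0.014.

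In the small subunit, 2 of 50 kept probe sets were called, both higher in KO, and 6 had an unadjusted p under 0.05, beside 2.44% called higher and 20.4% with such a p among all kept probe sets. The median over its 20 measured genes was 0.03, with 13 positive and 7 negative. Rps2, near the mRNA entry channel, gave intensities of 8900 and 9788 in WT, against 8792 and 9512 in KO, a log2 fold change of -0.03. Rps10 gave 0.01 and Rps26, beside the mRNA exit, gave -0.01, and both overlapped between groups. Rps29 measured 13055 and 12549 in the WT and 12100 and 11942 in the KO clones, a log2 fold change of -0.09 ± 0.18 (SE). Its 3 probe sets were all negative, from -0.19 to -0.08, and none passed the test. The 3 sets of Rps28 were likewise negative, from -0.10 to -0.02.

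Rps6, the substrate of the S6 kinases, had 1 kept probe set, at 223 and 243 in WT against 338 and 278 in KO, a log2 fold change of 0.38 (limma adjusted p = 0.30). Rps25, which some viral internal ribosome entry sites need, was at 520 and 706 in WT against 1153 and 747 in KO, a log2 fold change of 0.60 (limma adjusted p = 0.22). In both genes the KO clones lay above the WT clones, and neither difference was called. Rps24, which is mutated in some patients with Diamond-Blackfan anemia, had the highest fold change by the representative rule: its set 1455195_at gave intensities of 331 and 336 in WT, against 1039 and 382 in KO, a log2 fold change of 0.89 ± 0.38 (SE; limma adjusted p = 0.23). That value rested on KO clone 1: the fold change was 0.19 without it, while leaving out KO clone 2 gave 1.603 and a limma adjusted p of 0.028. The 4 brightest sets of Rps24, all marked _x_at, gave 0.09 to 0.30.

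Both called probe sets belong to small subunit genes whose brightest set was not called. Rps9 has a homolog in bacteria that helps to keep decoding accurate. Its set 1434624_x_at measured 251.7 and 250.03 in the WT and 2292 and 1537 in the KO clones, a log2 fold change of 2.83 ± 0.22 (SE; 95% interval 2.32 to 3.33; limma adjusted p = 0.00032), or 7.10-fold. Its set 1433689_s_at was at 7408 and 6467 in WT against 6269 and 6707 in KO, a log2 fold change of -0.09 (limma adjusted p = 0.82), with overlap. Its other set, 1426958_at, gave intensities of 170 and 134 in WT, against 241 and 107 in KO, a log2 fold change of 0.09, also with overlap. The 3 sets of 1 gene thus covered 2.92 on the log2 scale, the widest range of any member.

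Rps3 lies at the mRNA entry of the small subunit and is also known for roles in DNA repair. Its set 1455600_at measured 586 and 542 in the WT and 1421 and 1042 in the KO clones, a log2 fold change of 1.09 ± 0.21 (SE; 95% interval 0.62 to 1.56; limma adjusted p = 0.025). Its set 1435151_a_at was at 8363 and 8617 in WT against 8363 and 8871 in KO, a log2 fold change of 0.02, where WT clone 1 and KO clone 1 had the same value. The call of 1455600_at was lost without WT clone 2 (limma adjusted p = 0.098) and without KO clone 1 (limma adjusted p = 0.17), at fold changes of 1.03 and 0.86. It was also lost on the values as deposited (0.77, limma adjusted p = 0.47), with a pseudocount of 1 (limma adjusted p = 0.13) and without the filter (limma adjusted p = 0.12). The call of the Rps9 set held under every alternative in which it was tested, with fold changes from 2.54 to 3.13 and limma adjusted p-values no higher than 0.025.

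**Figure D2:**
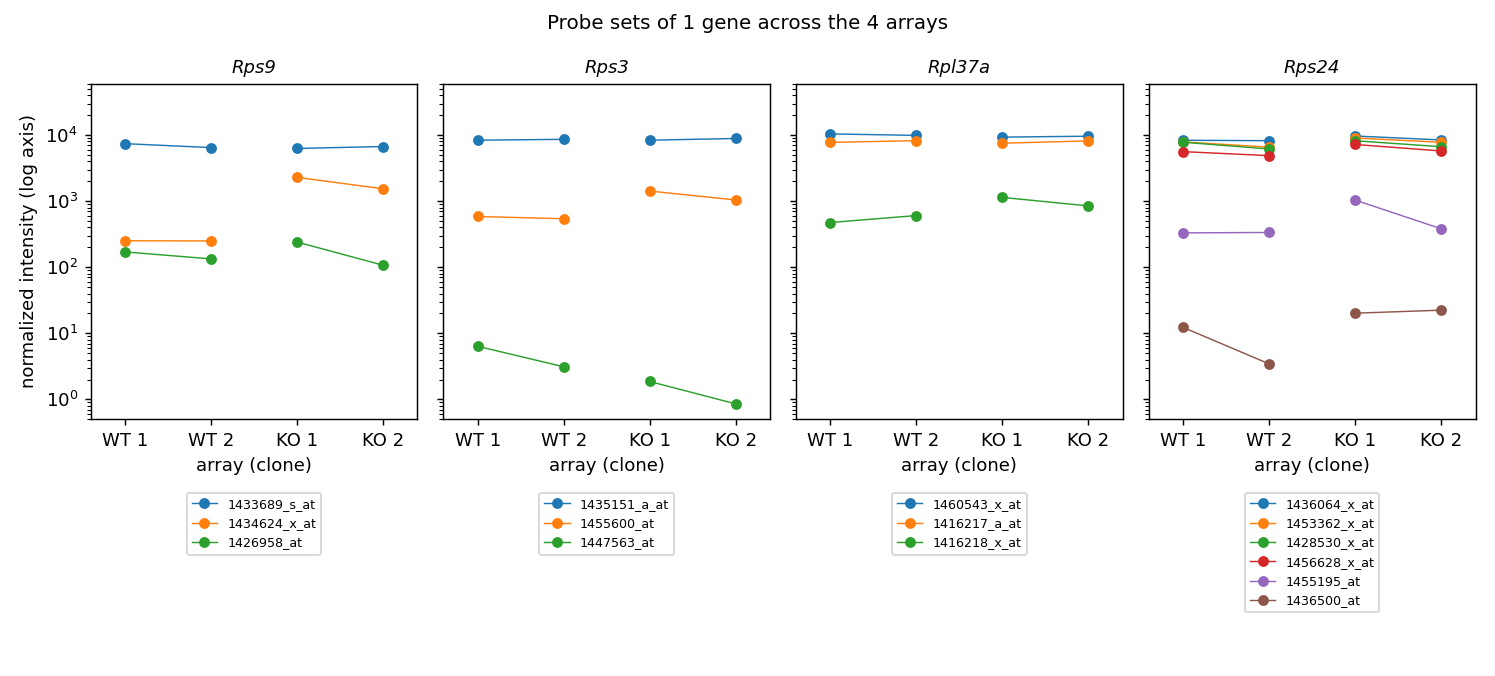
Quantile-normalized intensity (log axis) of each probe set of Rps9, Rps3, Rpl37a and Rps24 on the 4 arrays, 1 line for each probe set, joined within a group. The brightest sets overlap or nearly overlap between the groups, while the Rps9 set 1434624_x_at goes from 251.7 and 250.03 to 2292 and 1537 and the Rps3 set 1455600_at from 586 and 542 to 1421 and 1042.

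Rpl37a, in the large subunit, showed the same division. Its set 1416218_x_at gave intensities of 475 and 605 in WT, against 1139 and 847 in KO, a log2 fold change of 0.85 ± 0.22 (SE; limma adjusted p = 0.070), while 1460543_x_at and 1416217_a_at gave -0.10 and -0.03. Rpl7 had a range of 0.41 between its 3 sets, from -0.05 to 0.36, all above 4000 in intensity. The highest came from 1426163_x_at, which read 5322 in WT clone 1 and between 7653 and 9018 on the other 3 arrays. Rps18, with 6 sets, ran from -0.29 to 0.36. Its 3 bright sets lay between -0.06 and -0.02, and its 3 dim sets read between 12.6 and 57.2 on all arrays. Across the 19 genes with several kept sets, 68 sets in all, the median range between sets of 1 gene was 0.24, 8 genes had sets of both signs, 5 had a range above 0.5, and Rps14 had the smallest range at 0.02.

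The division between bright and dim probe sets ran through all the members. A mean intensity of 4000, set after the values were seen, left 67 sets of 34 genes above it and 25 sets of 19 genes at or below it, and 10 genes had sets on both sides. Above 4000, none of the 67 was called by limma, none had an unadjusted p under 0.05, the median was 0.02 and the values ran from -0.19 to 0.36. Both KO clones lay above WT in 19 of them and below in 7, where 46.1% of all kept probe sets above 4000 did not overlap and 0.384% were called. All 67 intervals of the measured fold change lay within 2-fold, and 55 lay within 1.5-fold, which describes the array readings only and sets no bound on the transcripts' change. These p-values and intervals rest mostly on a variance prior shared by all kept probe sets (6.87 degrees of freedom, beside 2 from the arrays). The median half-width of the 67 intervals was 0.41. The median log2 range between clones of these sets was 0.07 in WT and 0.09 in KO. At or below 4000, 2 of the 25 were called against 3.75% of all kept sets there, 22 were positive and 3 negative, and the median was 0.38 beside -0.02 for all kept sets in that range. Both KO clones lay above WT in 12 of these 25 and below in none, against 23.9% of all such sets with both KO clones higher. Only dim sets were kept for Rps6, Rps25, Rps27, Rpl12, Rpl14, Rpl27a, Rpl39l, Rpl39 and Rpl37, so their values rest on this lower range alone. Of these genes, Rpl39 gave 0.04 and Rpl37 -0.03, and the others lay higher. The intensity of a set depends on its probes as well as on its transcript, so these 2 ranges do not rank the genes by abundance.

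**Figure D3:**
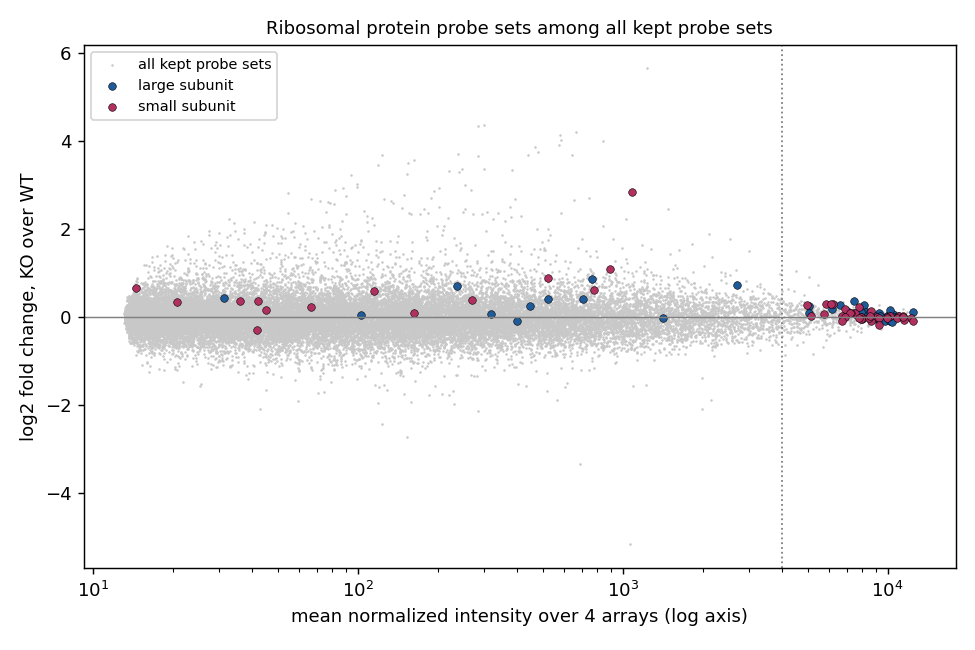
Log2 fold change, KO over WT, against mean intensity (log axis) for the 92 kept ribosomal protein probe sets (coloured by subunit) over all kept probe sets of the array (grey), with a dotted line at 4000. The 67 members above 4000 lie between -0.19 and 0.36, and the 25 members at or below 4000 spread from -0.29 to 2.83 with a median of 0.38.

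The bright sets sat at the top of the array's scale. On each array 65 to 67 of the kept members were in the top 1% of all rows, and the highest deposited value of any row was between 12751 and 14472. Whether sets this close to the top read a change in full was not tested. The median deposited value of the bright members differed by 1.04-fold between the lowest and the highest array, where the median of all rows differed by 1.53-fold. On the values as deposited, 25 of the 67 bright members were positive with a median of -0.03, and with centring 37 were positive with a median of 0.004, so the sign of their small shift depends on the scaling. The dim members kept a positive median under both, at 0.25 and 0.29.

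The KO clones differed from each other in the dim members more than the WT clones did. KO clone 1 was above KO clone 2 in 20 of the 25 dim members, with a signed median difference of 0.44 on the log2 scale. WT clone 1 was above WT clone 2 in 14, with a signed median of 0.01. Regardless of sign, the median difference was 0.55 between the KO clones and 0.17 between the WT clones. For all kept sets in that range these medians were 0.21 and 0.19. A difference above 0.5 was seen between the KO clones in 13 dim members, 12 of them higher in KO clone 1, and between the WT clones in 2. Over all 26501 kept sets at or below 4000, KO clone 1 was the higher in 12374, and the signed median difference was -0.03. A difference above 0.5 was seen there between the KO clones in 3506 sets, 2069 of them higher in KO clone 1. Between the WT clones it was seen in 2859. Without KO clone 1 the median fold change of the dim members was 0.17, with 16 of 24 positive, and without KO clone 2 it was 0.67. For actin, the log2 ratio of the control set at the 3' end over that at the 5' end, a sign of RNA integrity, came to 0.48 and 0.44 in WT against 0.75 and 0.52 in KO, highest in KO clone 1, and that of Gapdh was between -0.33 and -0.29 on all arrays. The part of RNA quality in the dim members' values was not tested.

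**Figure D4:**
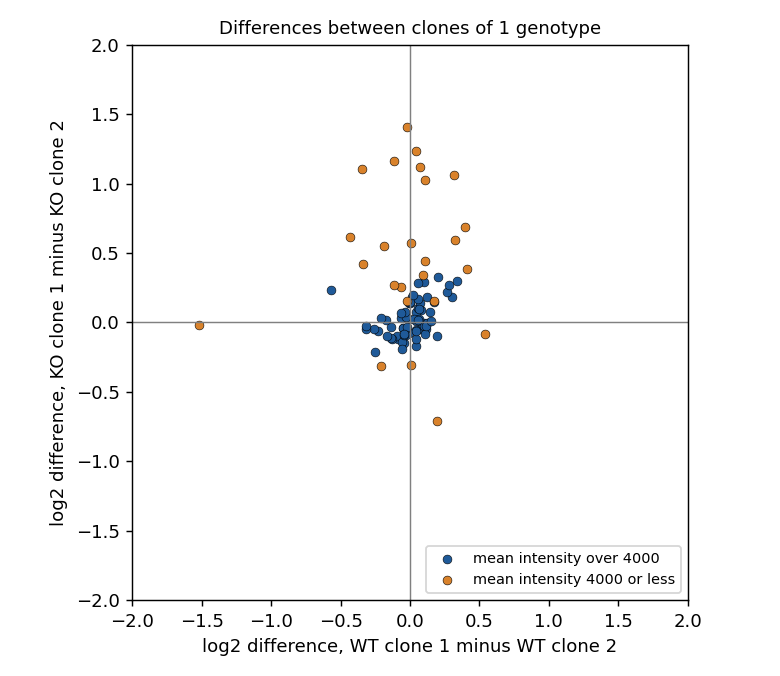
Each point is 1 kept ribosomal protein probe set, with the log2 difference between WT clone 1 and WT clone 2 on the horizontal axis and that between KO clone 1 and KO clone 2 on the vertical axis, coloured by a mean intensity above or at most 4000. The dim members spread upward, with a median of 0.44 on the vertical axis, while the bright members gather near 0 on both axes.

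Among the paralog pairs, Rpl39l had the highest fold change of the large subunit by the representative rule. Rpl39 lines the exit tunnel, and its paralog Rpl39l is best known from male germ cells. Rpl39l measured 2081 and 1946 in the WT and 3759 and 2969 in the KO clones, a log2 fold change of 0.73 ± 0.19 (SE; 95% interval 0.29 to 1.17; limma adjusted p = 0.081). Both KO clones were well above both WT clones, and the change missed the threshold. It passed with a pseudocount of 64, with a 60th percentile filter and with an intensity trend in the variance prior. It did not pass with a pseudocount of 1 (limma adjusted p = 0.20) or without the filter (limma adjusted p = 0.19). Centring gave 0.51 (limma adjusted p = 0.25) and the values as deposited 0.47 (limma adjusted p = 0.73). With 1 array left out, its fold change lay between 0.54 and 0.88. Rpl39 was at 92.4 and 109 in WT against 91.7 and 118 in KO, a log2 fold change of 0.04 (95% interval -0.41 to 0.49), with overlap. The difference between the paralogs' fold changes was not tested.

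Rps27l, a known target of p53, was read by 3 sets with log2 fold changes of 0.26 to 0.29. Its representative gave intensities of 6040 and 4976 in WT, against 7374 and 6112 in KO (limma adjusted p = 0.44), without overlap but by an amount within the interval of -0.16 to 0.74. Rps27 measured 93.6 and 79.6 in the WT and 105 and 182 in the KO clones, a log2 fold change of 0.60 (limma adjusted p = 0.22), with KO clone 2 highest. Among 11 other p53 targets measured, the median was 0.32, which became 0.0009 on the values as deposited and 0.04 with centring. Only Cdkn1a, the cell cycle inhibitor p21, passed the test and rose, where 2.94% of all genes were called higher, and the other 10 did not pass. It was at 432 and 382 in WT against 1139 and 1205 in KO, a log2 fold change of 1.49 ± 0.18 (SE; limma adjusted p = 0.0030). Its call was lost with a pseudocount of 1 (limma adjusted p = 0.053) and on the values as deposited (limma adjusted p = 0.10). Rps4l and Rps4x both gave 0.03, each with overlap. Rpl3l, the striated muscle paralog of Rpl3, gave intensities of 2.52 and 13.6 in WT, against 10.01 and 15.6 in KO, under or near the filter on every array, and none of 3 measured muscle markers was called by limma.

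The other genes of the pathway were followed through lists of ribosomal or related proteins with other names, RNA polymerase I, ribosome assembly, translation factors and regulators. The measured genes of the first list were Fau, Rpsa, Rpl22l1, Rpl7l1, Rsl1d1 and Rsl24d1. Among 77 ribosome assembly genes, 1 fell and none rose, where 1.34% of all genes were called lower. It was Nolc1, a nucleolar phosphoprotein, which measured 2005 and 1916 in the WT and 1007 and 1177 in the KO clones, a log2 fold change of -0.84 ± 0.18 (SE; limma adjusted p = 0.043). The list's median was -0.21, with 16 positive and 61 negative, and both KO clones were below WT for 42 genes and above for 5, against 3866 and 3372 of all 13023 genes. The list's median was -0.55 on the values as deposited and -0.51 with centring, settings that moved the median of all probe sets to -0.19 and -0.16. Under the same settings the large subunit median was -0.03 and 0.003, and the small subunit median -0.03 and 0.01. The difference between the assembly list and the ribosomal protein genes was not tested. The call of Nolc1 was lost whichever array was left out (limma adjusted p from 0.083 to 0.23), and also with a pseudocount of 1, without the filter and on the values as deposited.

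Over all 13023 genes, 4.28% were called, 2.94% higher and 1.34% lower, a share to set beside each count that follows. None of 14 RNA polymerase I genes, 17 elongation factors and other pyrimidine-tract mRNAs, 25 initiation factors and 6 ribosomal or related proteins with other names was called by limma. Their medians were 0.03, 0.05, -0.05 and -0.02. As deposited these medians were -0.25, -0.07, -0.35 and -0.18, and with centring -0.21, -0.03, -0.32 and -0.14, so that the sign of the first and of the pyrimidine-tract list depends on the scaling. Of 20 regulators of the mTOR and Myc pathways, Deptor, an mTOR inhibitor, fell: it was at 317 and 385 in WT against 176 and 181 in KO, a log2 fold change of -0.91 ± 0.19 (SE; limma adjusted p = 0.034), which was lost whichever array was left out (limma adjusted p from 0.052 to 0.18), and with a pseudocount of 1, without the filter and on the values as deposited. The regulators' median was -0.01, or -0.29 as deposited and -0.25 with centring. Of 76 mitochondrial ribosomal protein genes, which the rule leaves out, Mrps24 rose, from 1229 and 1203 in WT to 2656 and 2293 in KO, a log2 fold change of 1.01 ± 0.18 (SE; limma adjusted p = 0.021). That call was kept when WT clone 1 was left out (limma adjusted p = 0.049) and lost without any of the other 3 arrays, with centring (limma adjusted p = 0.062), on the values as deposited, with a pseudocount of 1 and without the filter. The mitochondrial list had a median of 0.10, with 52 positive and 24 negative, which turned to -0.22 on the values as deposited and -0.18 with centring.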

How the data were processed

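Total RNA of 4 ES cell clones was measured on 1 Affymetrix array each. The authors deposited 1 linear intensity for each probe set and array; the sources used here do not say how it was summarized from the probes. Per the labels, labelling followed the manufacturer's manual. Probe sets were named through GEO's platform annotation: of 45101 rows, 34958 had 1 symbol, 932 several, 9160 none, and 64 were controls. All 98 member probe sets matched the reference by gene identifier.

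Values were quantile-normalized, 16 was added and log2 taken. Probe sets under the 40th percentile of mean log2 value (an intensity of about 13.0) were left out, and KO was tested against WT with limma 3.58.1 in R 4.3.3 over 27022 probe sets, with Benjamini-Hochberg adjustment at 0.05. An exact permutation test of 2 against 2 cannot go below p = 0.333. Scripts were tested on simulated data. The genes described in detail are those with a called set, the 10 largest rises and falls by representative, paralog pairs, the 6 widest ranges between sets and the 6 smallest changes, which gave 32, plus from each related list the 2 largest called changes each way. Other genes were named after their values were seen. The members and lists were chosen with earlier results of these data known. Alternatives covered the pseudocount, filter, normalization, variance prior, the clone number as a blocking factor, leaving out each array, the value used per gene and the probe set suffix. No cultures or harvests are named, so p-values measure the spread between these arrays, in large part pooled over all kept probe sets.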

Additional observations from a re-analysis of the deposited data

Results flagged for a closer look

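Rows that list a ribosomal protein gene together with other genes took no part in the comparison. Of 105 such rows kept, 2 were called higher in the KO by limma and none lower, which is close to the 2.44% of all kept probe sets called higher, and their median log2 fold change was 0.01. Row 1453752_at, which lists 4 genes, had 108 and 120.3 in WT against 493 and 255 in KO, a log2 fold change of 1.51 (limma adjusted p = 0.023). Row 1455871_s_at, which lists 2 genes, had 736 and 686 in WT against 1229 and 1409 in KO, a log2 fold change of 0.87 (limma adjusted p = 0.036). Their signal cannot be given to 1 gene.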

How the results depend on the processing

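The 2 called ribosomal protein probe sets, which also are the named members called, became 1 with a pseudocount of 1, without the filter and on the values as deposited, and 4 with a pseudocount of 64, a 60th percentile filter or an intensity trend. The 2 sets added were those of Rpl37a (1416218_x_at) and Rpl39l. With only sets marked neither _x_at nor _s_at it was 1, that of Rps3. Leaving out 1 array gave 1 to 3. The count of genes called by representative, 0, became 1, Rpl39l, with a pseudocount of 64, the 60th percentile filter and the trend, 2 with the mean of a gene's sets (Rpl39l and Rps9), and 0 to 1 without 1 array. The large subunit median of 0.03 became 0.11 with the mean of sets and -0.03 as deposited, and lay between 0.003 and 0.05 without 1 array. The small subunit median of 0.03 became -0.03 as deposited and lay between 0.0006 and 0.10 without 1 array. The median SD between sets of a gene, 0.095, became 0.16 without _x_at and _s_at sets and lay between 0.082 and 0.21 without 1 array. The related lists counted next are the pathway and mitochondrial lists, without the fibroblast, ES cell, p53 and muscle markers. The 3 calls in the related lists became 0 with a pseudocount of 1, no filter or values as deposited, 19 with a pseudocount of 64, 9 with the 60th percentile filter, 16 with centring, 15 with the trend, 10 with the mean of sets, and 0 to 2 without 1 array. With clone number as a replicate block, 2 probe sets and 0 genes were called among the members and 5 genes in the related lists. Same-numbered clones' deviations correlated at 0.05 and no label pairs them. Over all probe sets, calls numbered 891 higher and 499 lower with the block. With 1 array left out, the lone clone is assumed to vary like the other group. Having 2 arrays a group limits the precision, and dim sets have the widest intervals.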
